A study of Rattus norvegicus with 49 samples.

Results

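The lowest of 4 furan doses, 0.03 mg/kg, was compared with corn oil alone (0 mg/kg) in rat liver, with males and females fitted together as 1 dose effect. The comparison held 18 of the 49 arrays of the series, chosen by the sex and dose that the labels give. These were 3 males and 5 females at 0.03 mg/kg and 5 males and 5 females at 0 mg/kg, each array holding the liver of a different rat. A further male array at 0.03 mg/kg, that of animal 26, was left out because 5.06% of its liver spots were well above background. All rats were F344, an inbred strain with no engineered allele, were 7 to 8 weeks old at the start, and were gavaged on 5 days a week for 90 days, so that the controls shared the corn oil and the handling with the treated rats. Animal numbers name single arrays and pair nothing between the doses.

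Furan is a volatile ring compound that forms when food is heated and that reaches the liver first after it is swallowed. In hepatocytes the cytochrome P450 enzyme CYP2E1 opens the ring to a reactive dialdehyde, which binds glutathione and protein. At high doses the rat liver is known to answer with cell death, regrowth and lesions of the bile ducts, and the lowest dose addresses whether liver transcripts differ at an exposure far below those.

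Liver RNA carried a red dye and a universal rat reference RNA a green dye, and a level is given here as the log2 ratio of liver over reference for 1 probe. A level of one probe cannot be set against that of another. A change is the fitted log2 difference of 0.03 from 0 mg/kg with its standard error (SE), and a called probe is one that differed by 1.5-fold or more with an adjusted p of 0.05 or less (limma, Benjamini-Hochberg adjustment over 18263 probes). The labels name single rats, so that the spread is between animals. Whole liver was used, so that fewer cells of a type and less RNA in each of them cannot be told apart.

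The 18 arrays were not equally bright. Between 42.8% and 68.6% of liver spots were well above background on the treated arrays (median 54.3%) and between 45.5% and 71.1% on the control arrays (median 65.0%). The means differed by -7.71 percentage points, with p = 0.0856 in an exact two-sided permutation test of the dose within each sex. That test leaves out the slide, so that it cannot tell a difference by dose from one by slide. In the reference channel the means differed by 0.587 points (exact permutation p = 0.674). The dimmest arrays lay on slides 5 and 6, which held 2 treated arrays and 0 of the 10 control arrays, and on slide 8, which held 1 treated and 1 control array. Slide 7, with 2 treated and 1 control array, had a median share of 57.4%, and slides 1 to 4 had medians of 64.1% to 69.1%. Levels of highly expressed liver genes moved with this share: the hepatocyte list, of which 11 of 11 markers such as Alb and Hnf4a were measured, had a mean level over the list of 5.62 to 7.65 in control males and 5.92 to 7.49 in treated males, and of 6.17 to 7.38 in control females and 5.63 to 7.19 in treated females. Arrays of 1 group correlated with each other at 0.936 to 0.986 over the tested probes.

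**Figure D1:**
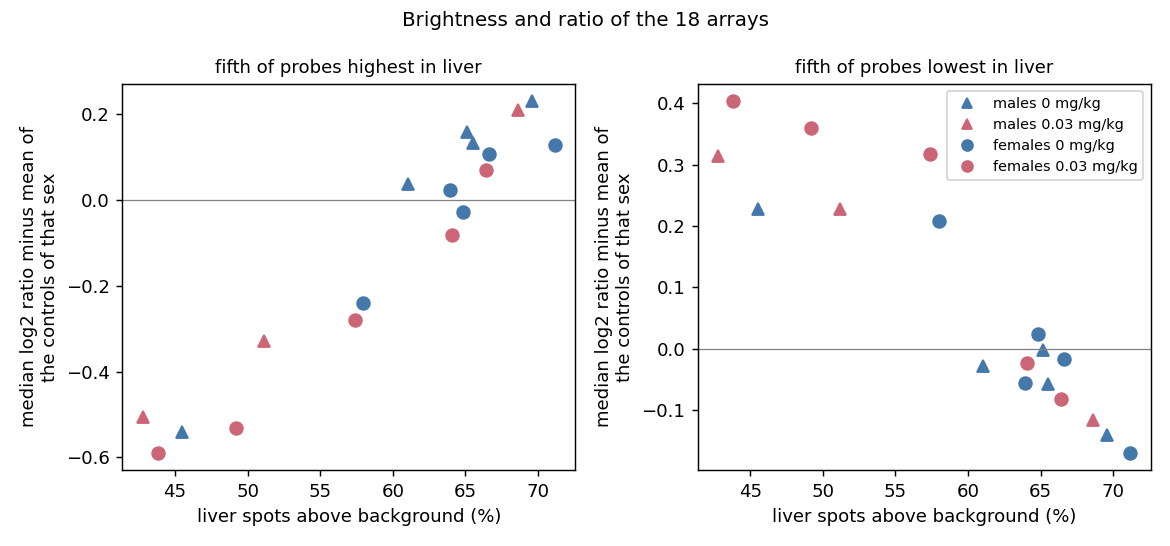
Median log2 ratio of each of the 18 arrays (vertical axis, minus the mean of the controls of the same sex) against its share of liver spots well above background in percent (horizontal axis), for the fifth of probes with the highest liver-over-reference ratio (left) and the fifth with the lowest (right); triangles are males, circles females, blue 0 mg/kg and red 0.03 mg/kg. The arrays under 50% have the lowest values on the left, between -0.59 and -0.51, and positive values on the right.

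The dose effect differed with how enriched in liver a transcript was. Over the fifth of probes highest in liver relative to the reference, the median change was -0.12 and 79.0% of probes were lower at 0.03 mg/kg. Over the fifth lowest in liver, the median change was 0.09 and 21.7% were lower. With the share of spots above background as a covariate the same medians were -0.01 and 0.03, and in the liver channel alone they were -0.00 and -0.02. The difference stayed in other settings. Without the arrays of slides 5, 6 and 8 the medians were -0.09 and 0.05, and on slides with both doses -0.05 and 0.05. The part of brightness in the single changes was not tested beyond these settings. Values with the covariate or in the liver channel alone stand below beside many of the gene groups they move. A group or gene given without them may move as well.

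Few transcripts passed the test at 0.03 mg/kg. Over both sexes 4 of 18263 probes passed an adjusted p of 0.05 (0.0219%), all 4 lower in treated rats, and 2 of these were called (0.011%). The called probes measured Rnf125, which encodes a ubiquitin ligase that limits the RNA sensor RIG-I, and a transcript with no gene name (probe A_44_P424723). The other pair were Srsf5, an SR protein of pre-mRNA splicing, and the unnamed probe A_64_P065146, both below 1.5-fold. At an unadjusted p under 0.05 there were 2395 of the 18263 probes, 1007 higher and 1388 lower, where 5% would be expected if no probe differed. The same 5% stands beside the counts given below for males, females and the interaction. The count of called probes was 0 without the slide block and 323 with a weight for each array.

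Rnf125 had log2 levels of 3.14, 3.84 and 3.94 in the treated males and of 4.05, 4.25, 4.16, 4.59 and 4.14 in the control males. In females the levels were 3.29, 3.68, 3.38, 3.45 and 3.30 at 0.03 mg/kg and 4.08, 3.91, 4.15, 4.13 and 3.76 at 0 mg/kg. Every treated array lay below every control array of its sex, which held for 2 of the 18263 probes in this direction (0.011%). The fitted change was -0.63 (SE 0.11), a fold of 1.55, with an adjusted p of 0.0472. It was -0.72 (SE 0.17) in males and -0.57 (SE 0.13) in females. In the 4 pairs of treated and control arrays of the same sex on a shared slide, the differences were -0.47, -1.45, -0.62 and -0.53. With the brightness covariate the change of Rnf125 was -0.63 and no longer passed the test (adjusted p 0.171).

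The unnamed called probe had levels of -1.17, -0.49 and -0.83 in treated males against -0.21, -0.47, 0.08, -0.31 and -0.27 in control males. Its female levels were -0.51, -0.53, -1.11, -1.22 and -0.30 at 0.03 mg/kg and -0.20, -0.09, 0.39, -0.40 and -0.53 at 0 mg/kg, so that the females overlapped. Its males did not overlap, but the nearest treated and control males lay at -0.49 and -0.47. Its separation in males was shared by 192 of 18263 probes in this direction (1.05%). Its change was -0.69 (SE 0.11, adjusted p 0.0338). Srsf5 fell by 0.43 (SE 0.07, adjusted p 0.0472). Its treated males lay at -0.58, -0.40 and -0.85 and its control males between -0.39 and -0.01. Its treated females lay between -1.08 and -0.64 and its control females between -0.80 and 0.03, so that 1 control female fell inside the treated range. The second unnamed probe fell by 0.45 (SE 0.07, adjusted p 0.0338), but by 0.10 in the liver channel alone (adjusted p 0.817). With the brightness covariate the called unnamed probe was at -0.75 (adjusted p 0.0619) and Srsf5 at -0.43 (adjusted p 0.279). The second unnamed probe was then at -0.38 (adjusted p 0.408), so that none of these 3 passed the test. Each of the 4 was lost when some single arrays were left out. Rnf125 stayed called in 3 of 18 such fits (without female control 4, treated female 23 or treated male 27), the unnamed probe A_44_P424723 in 9, and Srsf5 and A_64_P065146 stayed past the adjusted p in 2 and 6. The Rnf125 change without treated male 22, whose level was lowest, was -0.49 (adjusted p 0.14).

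**Figure D2:**
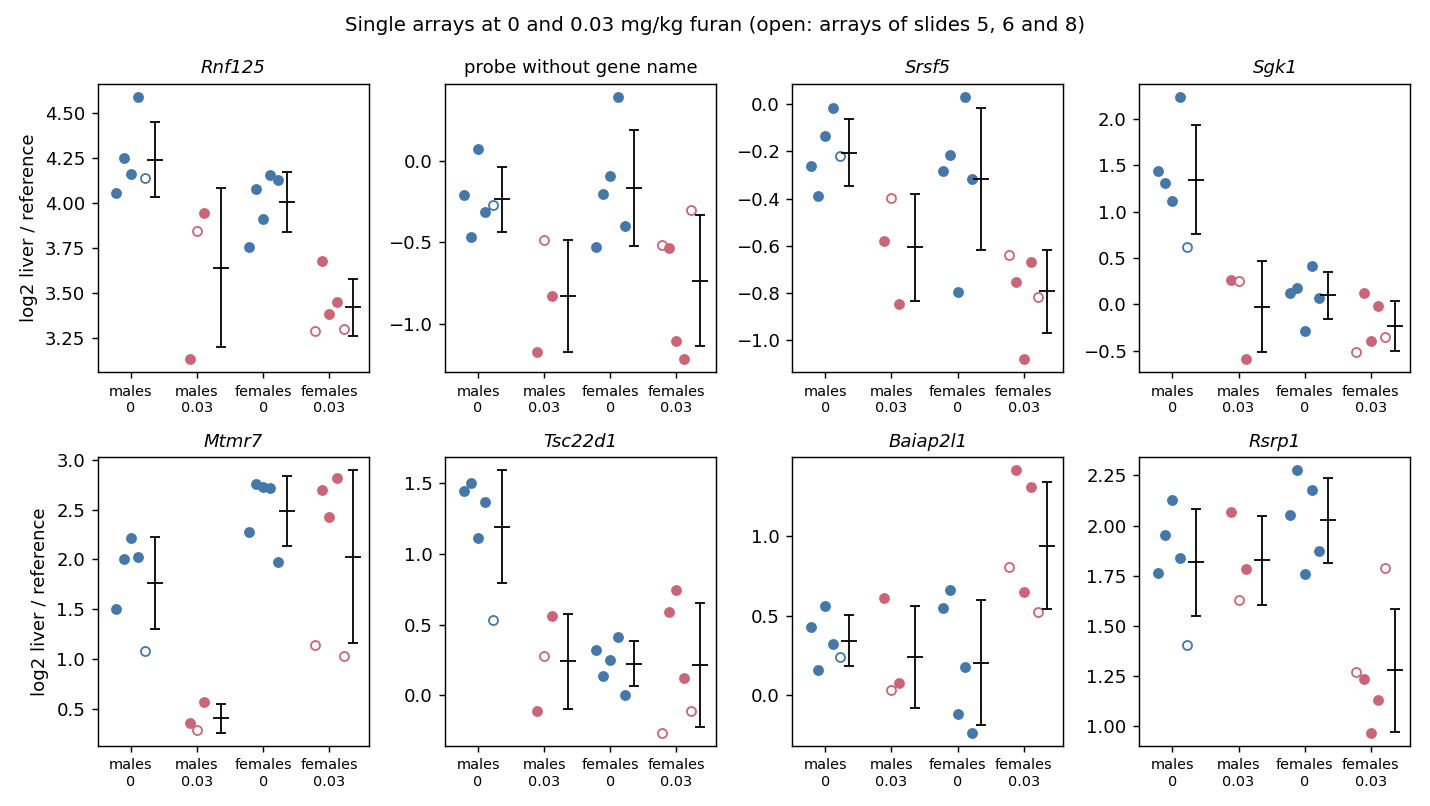
Log2 liver-over-reference level (vertical axes) on each array for 8 probes that passed the test in both sexes together, in males or in females; points are arrays, open points lie on the dim slides 5, 6 and 8, and black bars are the group mean and SD. The 8 treated arrays for Rnf125 lie between 3.14 and 3.94, below the controls of their sex.

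In males alone 3 of 18263 probes were called (0.0164%), all lower, with 1110 probes at an unadjusted p under 0.05. Sgk1, a kinase induced by serum and glucocorticoids, had levels of 0.26, 0.25 and -0.59 at 0.03 mg/kg and of 1.44, 1.31, 1.12, 2.24 and 0.62 at 0 mg/kg. Mtmr7, a phosphoinositide phosphatase of the myotubularin family, had levels of 0.36, 0.29 and 0.57 at 0.03 mg/kg and of 1.5, 2.00, 2.22, 2.02 and 1.08 at 0 mg/kg. Both genes separated treated from control males, as did 192 of 18263 probes in this direction (1.05%). Sgk1 fell by 1.44 (SE 0.22, adjusted p 0.024) and Mtmr7 by 1.63 (SE 0.24, adjusted p 0.024). Tsc22d1, a leucine zipper regulator of transcription, fell by 1.10 (SE 0.18, adjusted p 0.0497), with levels of -0.11, 0.28 and 0.56 against 1.44, 1.5, 1.11, 1.37 and 0.53. Its lowest control, animal 6 on the dim slide 8, overlapped the treated males. Over 18 fits that each left out 1 array, Sgk1 stayed called in 11, Mtmr7 in 9 and Tsc22d1 in 5, and none of them without any 1 of the treated males; without control male 6 there were 13 called probes. With the brightness covariate none of the 3 was called, with Sgk1 at -1.26 and Mtmr7 at -1.35 (adjusted p 0.226 each) and Tsc22d1 at -0.95 (adjusted p 0.227). With slide as a fixed term Mtmr7 was called (adjusted p 0.0234), and Sgk1 and Tsc22d1 were not (adjusted p 0.158 each). In females the fitted differences of these genes were -0.20 (SE 0.17) for Sgk1, -0.23 (SE 0.19) for Mtmr7 and 0.20 (SE 0.14) for Tsc22d1.

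In females alone 2 probes were called (0.011%), with 1566 at an unadjusted p under 0.05. Baiap2l1, an adaptor that links membrane curvature to actin, rose by 0.82 (SE 0.13, adjusted p 0.0484). Its levels were 0.81, 1.41, 0.65, 1.31 and 0.52 at 0.03 mg/kg and 0.66, -0.12, 0.17, -0.24 and 0.55 at 0 mg/kg, so that the groups overlapped. Rsrp1, an arginine and serine rich protein linked to splicing, fell by 0.80 (SE 0.12, adjusted p 0.0484). Its levels were 1.27, 1.23, 0.97, 1.13 and 1.79 at 0.03 mg/kg and 2.27, 1.76, 2.18, 1.87 and 2.05 at 0 mg/kg, where only animal 32, on the dim slide 5, reached the controls. In males Baiap2l1 was at 0.03 (SE 0.16) and Rsrp1 at 0.13 (SE 0.15), neither past the test. Over 18 fits without 1 array, Baiap2l1 stayed called in 7 and Rsrp1 in 6. With the brightness covariate Baiap2l1 stayed called at 0.89 (adjusted p 0.0385), while Rsrp1 was at -0.76 and was not (adjusted p 0.108); with slide as a fixed term both had an adjusted p of 0.182. A further probe of Baiap2l1 gave 0.44 over both sexes where the first gave 0.52.

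The male and female effects were compared directly as an interaction, and 0 of 18263 probes were called (0%), with 520 at an unadjusted p under 0.05. The male minus female difference was -1.29 for Tsc22d1 (adjusted p 0.302), -1.24 for Sgk1 (adjusted p 0.758) and -1.41 for Mtmr7 (adjusted p 0.758). It was 0.93 for Rsrp1 (adjusted p 0.75) and -0.78 for Baiap2l1 (adjusted p 0.898). The 5 sex-specific calls were thus not shown to differ between the sexes with 3 treated males. Without the arrays of slides 5, 6 and 8, a choice made after the brightness was seen, 4 genes were called in the interaction at an adjusted p of 0.0359: Mtmr7 at -1.64, Zbtb16 at -1.65, Tsc22d1 at -1.43 and Rsrp1 at 1.02. That fit holds 5 treated and 9 control arrays, with animals 22 and 27 as its only treated males.

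**Figure D3:**
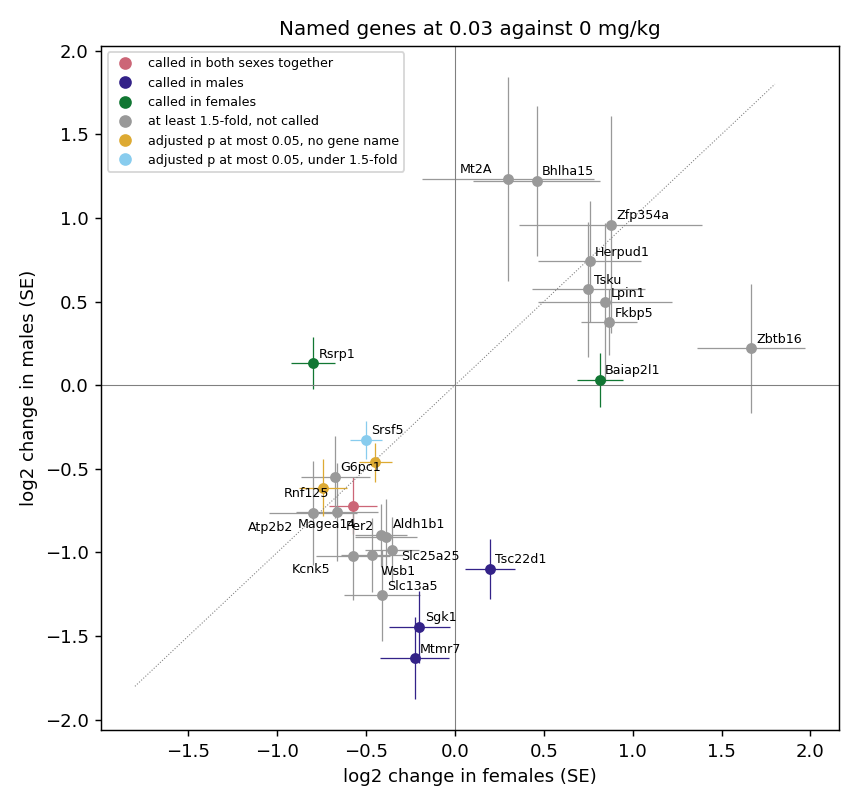
Log2 change at 0.03 against 0 mg/kg in females (horizontal axis) and in males (vertical axis), with SE bars, for the genes named by size of effect and for those called in 1 sex; the dotted line marks equal changes. Rnf125 lies near the line at -0.57 and -0.72, while Sgk1 and Mtmr7 lie below it and Rsrp1 and Baiap2l1 lie off it to the sides.

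Of the genes at 1.5-fold or more over both sexes, 66 probes in all, the higher side held 8 named genes and none passed the adjusted p. Fkbp5, a co-chaperone of the glucocorticoid receptor and one of its targets, came closest. Its levels were 0.10, -0.41 and -0.43 in treated males against -0.47, -0.72, -0.45, -0.79 and -0.66 in control males. They were -0.19, -0.50, -0.02, -1.01 and -0.77 in treated females against -1.51, -0.97, -1.42, -1.51 and -1.40 in control females. The lowest treated male, at -0.43, lay just above the highest control male, at -0.45. In the females animal 30 lay just below the highest control, animal 4. The difference was 0.68 (SE 0.13), a fold of 1.60, with an adjusted p of 0.123, and 0.71 with the brightness covariate.

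Zbtb16, a zinc finger repressor that glucocorticoids also induce, had a difference of 1.11 (SE 0.29, adjusted p 0.213). In females its levels were 1.02, 2.49, 2.83, 2.62 and -0.16 at 0.03 mg/kg and 0.82, 0.37, 0.33, 1.0 and 0.26 at 0 mg/kg, and in males 1.14, -0.07 and 0.32 against 0.06 to 0.65. Animal 32 of slide 5 and male 25 of slide 6 were the lowest of the treated arrays, below every control of their sex. The arrays of slides 5, 6 and 8 were left out in a fit chosen after the brightness was seen. There the change of Zbtb16 in females was 2.14 (adjusted p 1.94e-05). That fit dropped treated females 21 and 32, which had the lowest treated levels of Zbtb16, so that its p cannot be taken at face value. The remaining genes of the higher side were Herpud1 at 0.75, Tsku, a secreted liver protein, at 0.68, Bhlha15, a factor of secretory cells, at 0.75, Lpin1, a phosphatidate phosphatase, at 0.71, Zfp354a at 0.90 and the metallothionein Mt2A at 0.65. Their adjusted p values ran from 0.255 to 0.462. Treated male 22 was the highest treated array for each of these genes, relative to the controls of its sex. For Mt2A it lay 2.92 above the mean of the control males, where treated males 25 and 27 lay at 0.73 and -0.37. With 1 array left out, the change over both sexes went as low as 0.11 for Mt2A and 0.44 for Bhlha15 and Lpin1.

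The lower side held 56 of the 66 probes and 38 named genes at 1.5-fold or more. The 9 of smallest p after Rnf125, among them Per2, are given, with adjusted p values of 0.198 to 0.213. Slc25a25, a carrier of adenine nucleotides into mitochondria, had levels of 2.77, 2.88 and 2.57 in treated males against 3.73, 4.23, 4.14, 3.78 and 3.24 in control males, with a difference over both sexes of -0.60 (SE 0.14). In females its treated levels were 3.05, 2.78, 3.08 and 3.07, all below the control range of 3.46 to 3.91, except for animal 23 at 4.07. Wsb1, the substrate adaptor of a ubiquitin ligase, had levels of -0.84, -0.75 and -1.29 in treated males against -0.68 to 0.36 in control males, and a difference of -0.68 (SE 0.15). Kcnk5, a background potassium channel, was at -0.74 (SE 0.17) with no overlap in males, at 0.46 to 1.25 against 1.52 to 2.43. Such a separation in males held for 1.05% of tested probes. Magea14 was at -0.60, Atp2b2, a calcium pump of the plasma membrane, at -0.79, and Aldh1b1, a mitochondrial aldehyde dehydrogenase, at -0.59. Slc13a5, which imports citrate, was at -0.73, and G6pc1, the phosphatase that lets hepatocytes release glucose, at -0.63, with a further probe at -0.55. With the brightness covariate Atp2b2 was at -0.50, Slc13a5 at -0.52 and G6pc1 at -0.45, while Kcnk5 was at -0.74.

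The lists of known genes were described by their members at an unadjusted p under 0.05, and 0 list members were called over both sexes. Over 10078 genes taken by their brightest probe, 5.47% were higher and 8.73% lower at that level, and the median difference was -0.01. The glucocorticoid list held 4 higher and 3 lower of 14 measured targets, with a median of 0.02. Fkbp5, Zbtb16, Lpin1 and Klf9, a repressor induced by glucocorticoid and thyroid hormone (0.47, SE 0.12, adjusted p 0.213), were on the higher side. Sgk1 at -0.67, the amino acid enzyme Tat at -0.56 and the receptor gene Nr3c1 at -0.22 were on the lower side, and Tsc22d3, another well-known target, was at -0.07.

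Of 19 measured genes of the endoplasmic reticulum stress response, 7 were higher and 0 lower, with a median of 0.10 (0.14 with the brightness covariate, 0.13 in the liver channel alone, and -0.02 with median centring of the arrays in place of loess). Herpud1, which helps to remove misfolded proteins from the endoplasmic reticulum, had levels of 3.29, 1.72 and 2.14 in treated males against 0.77, 1.71, 2.43, 1.13 and 2.04 in control males. In females they were 2.93, 2.42, 2.92, 2.90 and 2.03 against 2.23, 2.52, 1.32, 1.67 and 1.05, and the groups overlapped in both sexes. Trib3, a pseudokinase of the amino acid response, had levels of -0.54, -0.42, -0.45, -0.64 and -0.64 in treated females against -1.05 to -0.72 in control females. In males it lay at 0.25, -0.26 and -0.72 against -0.72 to -0.37. Its difference was 0.39 (SE 0.09, adjusted p 0.213), and that of Asns, which makes asparagine, was 0.40 (SE 0.09, adjusted p 0.213). Dnajb9, Xbp1, Pdia6 and Creld2 completed the 7, at 0.40, 0.38, 0.23 and 0.38. The chaperone Hspa5, the usual marker of the response, was at -0.00, and Ddit3 and Atf4 were at -0.04 and -0.02.

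The promoters of this list were searched for the C/EBP-ATF element TGATGNAA, which ATF4 is known to bind, on both strands of the 250 bases before the start that RefSeq gives in the GRCr8 assembly. It stood in 3 of 17 promoters available, those of Chac1, Herpud1 and Trib3, and in 3.40% of 33469 promoters. The sequences of Herpud1 (chr19:10614708-10614957, minus strand) and Trib3 (chr3:161275534-161275783, minus strand) are shown because both genes stood among the 7; capitals mark the element, read here on its other strand. It began 184 and 21 bases before the start.
Herpud1: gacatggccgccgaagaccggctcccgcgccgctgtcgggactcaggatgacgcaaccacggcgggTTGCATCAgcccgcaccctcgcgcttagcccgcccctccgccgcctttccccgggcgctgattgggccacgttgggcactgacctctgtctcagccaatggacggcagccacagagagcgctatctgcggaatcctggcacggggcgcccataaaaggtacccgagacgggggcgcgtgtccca
Trib3: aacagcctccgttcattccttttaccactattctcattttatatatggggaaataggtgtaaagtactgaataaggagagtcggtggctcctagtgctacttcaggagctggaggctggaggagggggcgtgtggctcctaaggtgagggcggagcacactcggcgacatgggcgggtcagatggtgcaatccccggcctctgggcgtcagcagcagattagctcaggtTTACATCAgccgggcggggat

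Of 14 measured p53 targets 4 were higher and 1 lower, with a median of 0.15 (0.15 with the brightness covariate and 0.12 in the liver channel alone). Bax, which permeabilises mitochondria in apoptosis, was at 0.28 (SE 0.07, adjusted p 0.213), Ccng1 at 0.31, Tp53inp1 at 0.32 and Gadd45a at 0.31. Bbc3, which also promotes apoptosis, was at -0.24 (SE 0.08). Cdkn1a and Mdm2, the best-known targets, were at 0.15 and 0.16, with a dimmer probe of Cdkn1a at 0.51 (adjusted p 0.337). Of 21 NRF2 targets, the genes that answer to reactive compounds, 0 were higher and 3 lower, with a median of 0.02. Osgin1 was lowest at -0.55 (SE 0.14) and Gclc, the limiting enzyme of glutathione synthesis, was at -0.25 (SE 0.12). Akr7a3, an aldehyde reductase of this list, was at 0.27 (SE 0.18, adjusted p 0.518).

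Of 16 lipogenic genes 0 were higher and 7 lower, with a median of -0.23 (-0.11 with the brightness covariate and -0.13 in the liver channel alone). Gpam, the first enzyme of triglyceride synthesis, was at -0.45 (SE 0.10, adjusted p 0.213), Me1, malic enzyme, at -0.47 and Fasn, fatty acid synthase, at -0.58. Scd, the desaturase, had levels of -1.06, 1.72 and 1.79 in treated males against 0.58, 2.43, 3.00, 4.21 and 3.78 in control males, and of 2.94 to 4.98 against 3.56 to 4.89 in females. Its male difference was -2.75 (SE 0.64, adjusted p 0.287). Of 13 fasting and gluconeogenic genes 0 were higher and 5 lower, with a median of -0.25 (-0.16 and -0.08 under the same settings), led by G6pc1, Sik1, a kinase that restrains gluconeogenesis (-0.39), and Igfbp1, a binder of insulin-like growth factors (-0.58). Of 13 genes of bile acid synthesis and uptake 0 were higher and 3 lower: Cyp7b1 at -0.79, the uptake carrier Slco1a1 at -0.44 and Cyp7a1, the rate-limiting enzyme, at -0.76 (SE 0.31). Their median was -0.18, and 0.01 in the liver channel alone, where Cyp7b1 was at -0.43, Slco1a1 at -0.10 and Cyp7a1 at -0.37.

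Of 5 genes of the BMAL1 arm of the circadian clock 0 were higher and 4 lower, with a median of -0.23 (-0.13 with the brightness covariate). Cry1, a repressor of the clock, had treated female levels of -0.02, 0.40, -0.33, 0.33 and 1.01 against 0.46 to 1.28 in control females, and a difference of -0.57 (SE 0.15, adjusted p 0.213). Npas2, Nfil3 and Clock were at -0.29, -0.23 and -0.23. Of 7 genes of the PER arm, 1 was lower: Per2, the repressor, had levels of -0.55, 0.38 and 0.60 in treated males against 1.05, 1.07, 1.07, 0.97 and 0.02 in control males. In females Per2 lay at -0.34, -0.06, -0.58, -0.43 and 0.62 against 0.14 to 0.92, and its difference was -0.70 (SE 0.18, adjusted p 0.213).

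The Per2 promoter (chr9:99496994-99497243, minus strand, GRCr8, from RefSeq) is shown because it alone of the 7 PER-arm promoters held the D-box TTATGTAA, the element bound by DBP and NFIL3, marked in capitals. The D-box began 192 bases before the start and stood in 0.828% of all promoters.
Per2: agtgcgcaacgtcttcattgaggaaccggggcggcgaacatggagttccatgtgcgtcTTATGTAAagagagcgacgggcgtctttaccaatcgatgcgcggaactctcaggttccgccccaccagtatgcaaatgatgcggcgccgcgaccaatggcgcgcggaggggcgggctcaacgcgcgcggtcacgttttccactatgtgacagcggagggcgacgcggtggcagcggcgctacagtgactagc

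**Figure D4:**
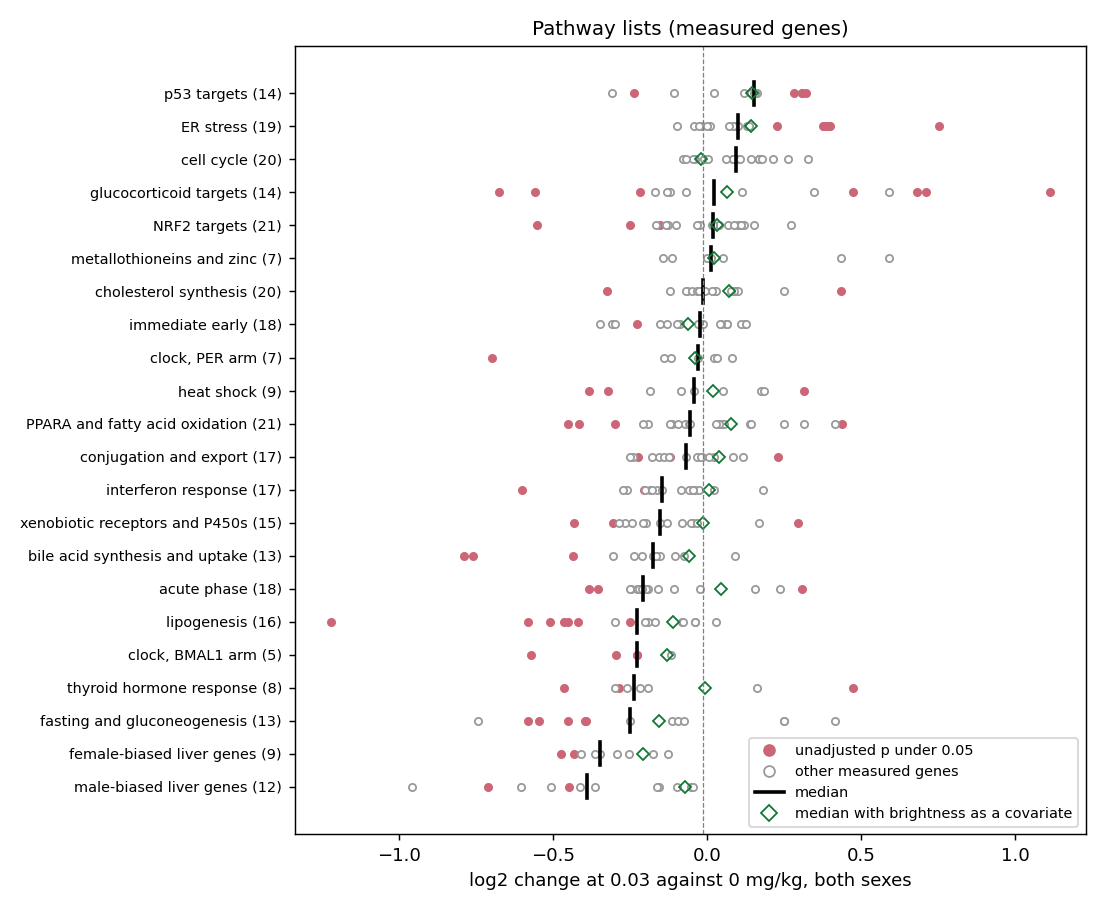
Log2 change at 0.03 against 0 mg/kg over both sexes (horizontal axis) of each measured gene of the 22 pathway lists (rows); filled points have an unadjusted p under 0.05, black bars are list medians, green diamonds the medians with the brightness covariate, and the dashed line the median of all genes. ER stress and p53 target medians lie at 0.10 and 0.15, and at 0.14 and 0.15 with the covariate (-0.02 and 0.01 with median centring), while those of the sex-biased lists move from -0.39 and -0.35 to -0.07 and -0.21.

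Several lists lay on the lower side as a whole and moved with brightness. All 12 male-biased genes, which growth hormone pulses set in rat liver, had negative changes, with a median of -0.39, and 2 of them were lower at the unadjusted p. Of all 10078 genes, 5438 had negative changes. The median of the male-biased list was -0.17 in males and -0.51 in females. Over both sexes it was -0.07 with the covariate and -0.25 without the arrays of slides 5, 6 and 8. All 9 female-biased genes also had negative changes, with a median of -0.35 (-0.28 in males, -0.33 in females) and 2 lower. The 11 hepatocyte markers had a median of -0.27 and 2 lower, with Alb at -0.27 (SE 0.13, adjusted p 0.386). Their median was -0.02 with the covariate, 0.01 in the liver channel alone and -0.27 without the arrays of slides 5, 6 and 8. Acute phase genes (1 higher and 2 lower of 18) had a median of -0.21, and 0.04 with the covariate. Of 15 genes of xenobiotic receptors and P450 enzymes 1 was higher, the reductase Por at 0.30, and 2 were lower, with a median of -0.15, and 0.11 in the liver channel alone. Cyp2e1, the enzyme that oxidises furan, was at -0.29 (SE 0.17, adjusted p 0.455) at -0.01 with the covariate and at 0.11 in the liver channel alone.

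Further lists had few members at the unadjusted p. Of 21 genes of fatty acid oxidation, which PPARA controls, 1 was higher, Vnn1, a pantetheinase, at 0.44, and 3 were lower, Cyp4a1, Ehhadh and Pdk4, at -0.42, -0.30 and -0.45. In the liver channel alone Vnn1 was at 0.27, Cyp4a1 at -0.29, Ehhadh at -0.03 and Pdk4 at -0.11. Vnn1 had treated male levels of 1.12, 0.76 and 1.02 against 0.16 to 0.75 in the 5 control males, so that the lowest treated and highest control male nearly met. Cholesterol synthesis had 1 higher and 1 lower of 20 measured. The interferon list had 0 higher and 2 lower of 17, among them Rsad2, an antiviral enzyme, at -0.60, and the heat shock list 1 higher, Bag3 at 0.31, and 2 lower of 9, among them Hspe1 at -0.38. Conjugation and export had 1 higher and 2 lower of 17, and thyroid hormone response 1 higher and 2 lower of 8. The thyroid hormone median of -0.24 was -0.01 with the covariate, and the interferon median of -0.15 was 0.01. Immediate early genes had 0 higher and 1 lower of 18, and metallothioneins and zinc carriers 0 in either direction of 7. Of 20 cell cycle genes 0 were higher and 0 lower.

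Markers of the other cell types of liver were also followed. Of 9 bile duct markers 2 were higher and 2 lower, with a median of 0.15 that was 0.06 with the covariate. Of 13 stellate cell and fibroblast markers 8 had positive and 5 negative differences, with a median of 0.03; 0 were higher and 4 lower at the unadjusted p, among them the receptor Pdgfrb at -0.36 (SE 0.10, adjusted p 0.222), the collagen Col3a1 at -0.37 and the retinol enzyme Lrat at -0.52. Of 13 macrophage markers 2 were lower, with a median of -0.19 and of -0.02 with the covariate; the Kupffer cell gene C1qa was at -0.36. Erythroid markers had 1 lower of 7, Slc4a1 at -0.47, and platelet markers 1 lower of 4. The periportal list had 2 lower of 8, Gls2 at -0.39 and Hal at -0.34, and the pericentral list 2 lower of 8. With the covariate the periportal median of -0.23 was -0.06, the pericentral median of -0.15 was 0.02 and the erythroid median of -0.27 was -0.10. In the liver channel alone Slc4a1 was at -0.04, C1qa at -0.08 and Lrat at 0.01, while Pdgfrb was at -0.28 and Col3a1 at -0.31. Several lists had 0 members at the unadjusted p but few measured genes, so that a count of 0 says little. These were the endothelial (5 measured), neutrophil (4), T and NK cell (7), B cell (3), adipocyte (2), mesothelial (1) and pancreatic (7) lists. The defining T cell marker Cd3e, the neutrophil markers Ltf and Ngp and the pancreatic markers Prss1 and Pnlip were above background on no array. The part of other cell types in the changes above was not tested.

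Of genes that the study gives for this dose or measured by PCR, Sgk1 in males and Baiap2l1 in females passed the test and no other did. The study chose them on these samples, so that they are not independent evidence. Foxo3, a transcription factor of fasting and stress, was at 0.25 (SE 0.12), with 0.61 (SE 0.17) in males and 0.03 (SE 0.13) in females. Xiap, an inhibitor of caspases, was at -0.17 (SE 0.12). The efflux pump Abcb1b was at 0.00 (SE 0.11), Cyp3a62 at -0.05 (SE 0.22), Ppara at 0.31 (SE 0.20), the fatty acid binder Fabp7 at -0.20 (SE 0.13) and the reference gene Hprt1 at -0.21 (SE 0.11).

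The higher doses are given as levels only, since they share the control arrays. Rnf125 in males had a mean of 4.24 ± 0.21 (SD, n = 5) at 0 mg/kg and 3.64 ± 0.44 (n = 3) at 0.03 mg/kg, followed by 3.02 ± 0.26, 3.23 ± 0.41 and 2.73 ± 0.41 (n = 5 each) at 0.12, 0.5 and 2 mg/kg. In females it had 4.00 ± 0.17 at 0 and 3.42 ± 0.16 at 0.03 mg/kg, followed by 3.25 ± 0.26, 3.35 ± 0.24 and 3.14 ± 0.35 (n = 5 each). Its means at every furan dose lay below those of the controls in both sexes. Sgk1 in males went from 1.35 ± 0.59 at 0 to -0.02 ± 0.49 at 0.03 mg/kg, and its means at the higher doses lay between -0.34 and 0.25. Mtmr7 in males had no steady order by dose, at 1.77 ± 0.46, 0.41 ± 0.14, 1.37 ± 0.61, 0.88 ± 0.68 and 0.40 ± 0.36 from 0 to 2 mg/kg. Baiap2l1 in males was at 0.34 ± 0.16 and 0.24 ± 0.32 at 0 and 0.03 mg/kg and at 1.17 ± 0.62 at 0.12 mg/kg, while in females it was at 0.20 ± 0.40, 0.94 ± 0.40 and 0.94 ± 0.54. Fkbp5 in males was at -0.62 ± 0.15 and -0.25 ± 0.30, and at 0.71 ± 0.61 at 0.12 mg/kg. Herpud1 means lay between 1.98 and 2.98 at every furan dose in both sexes, against 1.62 and 1.76 in control males and females.

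**Figure D5:**
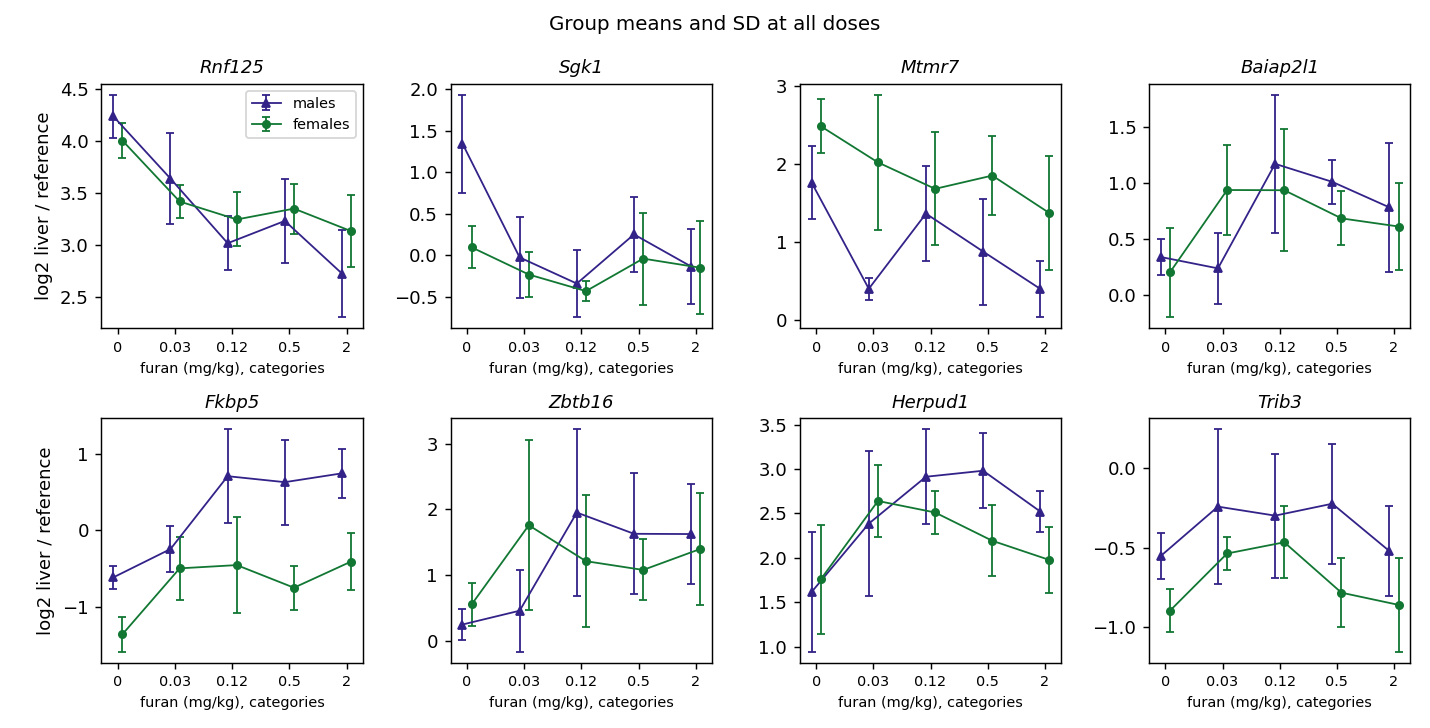
Mean log2 liver-over-reference level with SD (vertical axes) of 8 genes at 0, 0.03, 0.12, 0.5 and 2 mg/kg furan, spaced as categories, in males (triangles) and females (circles); the groups hold 5 arrays, except for 3 males at 0.03 mg/kg. Rnf125 lies lower at every furan dose than in the controls of each sex.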

How the data were processed

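Liver RNA of single rats was hybridised with a common reference on Agilent two-colour arrays. The deposited scanner files hold median spot and background intensity for both colours, 0 or 1 marks of spot quality and a log10 ratio, as Feature Extraction 10.7.3.1 wrote them. The deposited series matrix holds log2 ratios that the authors normalised. Of its 49 columns 8 matched their own scanner file best, 44 a file of their own group (their own file included) and 5 a file of another group. It was used by group only, which those 5 columns leave unsure.

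Intensities were corrected by normexp (offset 50) and normalised by loess within each array in limma 3.58.1 under R 4.3.3 (files read with the data.table package, version 1.17.8), and the spots of a probe were averaged. A probe was tested when well above background on at least 4 treated or 5 control arrays, which left 18263 of 30367 probes. RefSeq symbols (GRCr8) named 18004 of the 30367 probes and 11682 of the 18263 tested probes. The fit had terms for dose and sex and the slide as a random block (correlation 0.66). Males, females and their difference came from 1 mean per group. All tests were two-sided, and the number of arrays limits the precision.

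The members and lists were chosen with earlier results of these data known. Named genes were the 10 largest called changes each way, filled by the smallest p at 1.5-fold, up to 4 members of each list by smallest p, the genes the study gives for this dose or measured by PCR, Cyp2e1, and up to 3 called each way in each sex. Srsf5, the unnamed probes, Gadd45a, Xbp1, Pdia6, Creld2, Hspa5, Ddit3, Atf4, Cdkn1a, Mdm2, Tat, Nr3c1 and Tsc22d3 were chosen after their values were seen. The steps were tested on simulated data. Single values of some list members are not reported here.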

Additional observations from a re-analysis of the deposited data

Results flagged for a closer look

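Of 258 groups of 5 arrays, 13 held an array far from the others by Dixon's test (5.04%), where chance alone gives about 1 in 20. Among control males, animal 6 on the dim slide 8 lay apart for Per2 (0.022), Tsku (1.71), Xiap (0.094) and Cyp7b1 (2.65), each the lowest of its group, and animal 2 for Vnn1 (0.75), the highest. Among control females, animal 4 on slide 7 lay apart for Aldh1b1 (4.65), Cry1 (0.46), Pdk4 (1.79) and Alb (8.07), each the lowest, and for Fkbp5 (-0.97), the highest. Among treated females, animal 23 was highest for Slc25a25 (4.07), and animal 30 for Aldh1b1 (5.42) and Hal (6.01). All are log2 liver-over-reference levels.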

How the results depend on the processing

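Called probes numbered 2 in both sexes together, 3 in males, 2 in females and 0 in the interaction. In the same order of both, males and females, the counts were 0, 0 and 0 without the slide block, with male 26 kept, with no filter on dim probes, and in a test against 1.2-fold. The authors' normalised values, which were fitted with male 26 and without the slide block, also gave 0, 0 and 0. They were 0, 1 and 0 with slide as a fixed term, 0, 0 and 2 with all 48 arrays, 1, 1 and 4 without the treated arrays of slides 5 and 6, and 1, 1 and 0 both on slides with both doses and with the scanner log ratio. They were 1, 0 and 5 with median centring, 0, 2 and 0 both in the liver channel alone and with a normexp offset of 10, 1, 0 and 2 without background correction, 2, 2 and 5 for probes above background on all 18 arrays, and 323, 752 and 15 with array weights. Leaving out 1 array gave 0 to 6 in both sexes, 0 to 13 in males, 0 to 5 in females and 0 to 0 in the interaction. Of the settings chosen after seeing the data, leaving out the arrays of slides 5, 6 and 8 gave 1, 10 and 4 with 4 in the interaction, and the brightness covariate gave 0, 0 and 2. The cause of these differences was not tested.

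Signs turned for 5 genes that passed no test over both sexes in the fit given above. Lrat was called in 1 other setting, and Cyp2e1 passed the adjusted p in 1. Abcb1b, at 0.00, was at -0.22 without the slide block, -0.036 with all 48 arrays, -0.17 with male 26 kept, -0.083 with median centring, -0.10 with the authors' values, -0.040 with no filter, -0.13 with array weights and -0.020 without slides 5, 6 and 8, and lay between -0.074 and 0.036 with 1 array left out. Cyp3a62, at -0.05, was at 0.15 with slide fixed, 0.15 with all 48 arrays, 0.081 without the treated arrays of slides 5 and 6, 0.12 on slides with both doses, 0.12 with median centring, 0.17 in the liver channel alone, 0.018 without slides 5, 6 and 8 and 0.26 with the covariate, and lay between -0.26 and 0.042 with 1 array left out. In the liver channel alone Fabp7 was at 0.043, Cyp2e1 at 0.11 and Lrat at 0.0098.

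No paired analysis was possible because treated and control groups share no animal numbers by which to pair them; shared slides entered as the block given above. Spots near background, more of them on slides 5, 6 and 8, limit what dim probes can show.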
